A study of Mus musculus with 12 samples.

Results

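Hnf4a, Hnf4g, Foxa1, Foxa2, Foxa3, Onecut1, Onecut2 and Prox1 are transcription factors of the liver network, and they were followed across 4 sorted cell populations of injured mouse liver. They were taken by gene symbol from the deposited count table, which gave 8 members among 53599 rows. All 8 had enough reads to be tested, among 16210 genes tested in all. Each population had 3 libraries, 12 in all, made from bulk RNA of sorted cells.

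All mice were labelled wild type (WT) and had been given AAV8-TBG-Cre, an adeno-associated virus in which the TBG promoter, active in hepatocytes, drives Cre, so that EGFP marks hepatocytes and their descendants. From 1 week after the virus, all were fed 0.1% DDC, a porphyrinogenic compound that injures bile ducts, and cells were taken after 8 weeks. The early group was sorted as EGFP+ Cd24- Epcam-, the intermediate group as EGFP+ Cd24+ Epcam-, the full group as EGFP+ Cd24+ Epcam+, and the biliary epithelial cells (BEC) as EGFP- Epcam+. No group without the diet was analysed here, and early is not uninjured liver. The age of the animals was not given in the sources used here. The labels do not say whether replicates came from separate animals, so p-values measure the spread between these libraries, which may be technical.

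HNF4A and HNF4G are nuclear receptors that bind DNA as dimers, and HNF4A maintains much of the gene expression of the mature hepatocyte. The FOXA proteins are forkhead factors that can bind closed chromatin and act with HNF4A at liver enhancers. ONECUT1, also called HNF6, and ONECUT2 carry a cut domain and a homeodomain and are needed for normal bile duct development. PROX1 is a homeodomain protein of hepatoblasts and hepatocytes, a partner of HNF4A and a repressor of bile acid synthesis genes, and it also specifies lymphatic endothelium.

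Some promoters of these factors hold short words that match core motifs of the same families, and the windows that held such a word are shown to make those matches visible. RefSeq promoter entries on GRCm38.p6 were found for 6 of the 8 members, with 10 annotated starts between them. The count table was made on GRCm39 per the submitters' processing notes, so the coordinates below belong to the older build only. Hnf4g and Onecut2 had no entry. The 250 bases before each start were searched on both strands for the forkhead words TGTTTAC and TGTTTGC, the Onecut words ATTGATT and ATTGACT, and the HNF4 word CAAAGTCC, and no match overlapped with another. Capitals mark the match, read 5′ to 3′ on the strand of the gene. The first pair shows the whole 250 bases before the first start of Hnf4a (chr2:163506607-163506856, plus strand) and of Foxa2 (chr2:148046970-148047219, minus strand), each with an Onecut word.

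Hnf4a start 1: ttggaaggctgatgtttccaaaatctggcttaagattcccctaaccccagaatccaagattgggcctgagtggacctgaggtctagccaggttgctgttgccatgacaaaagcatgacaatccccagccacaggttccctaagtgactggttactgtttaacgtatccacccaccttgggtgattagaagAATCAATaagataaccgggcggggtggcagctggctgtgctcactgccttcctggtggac
Foxa2 start 1: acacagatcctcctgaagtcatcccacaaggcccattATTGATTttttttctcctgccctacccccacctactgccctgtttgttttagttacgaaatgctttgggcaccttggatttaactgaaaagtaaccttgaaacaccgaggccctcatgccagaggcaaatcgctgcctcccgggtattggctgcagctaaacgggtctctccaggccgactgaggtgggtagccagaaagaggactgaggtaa

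In Hnf4a the word lies on the opposite strand, 60 to 54 bases before the start, and in Foxa2 it lies 213 to 207 bases before the start. The other 3 matches are shown with the bases next to them, in 30-base windows at chr12:57546235-57546264 (Foxa1), chr2:148045604-148045633 (Foxa2, the third start) and chr1:190169618-190169647 (Prox1, the second start), all genes of the minus strand. The Foxa1 match is the forkhead word TGTTTAC read on the opposite strand, the Foxa2 match is the Onecut word ATTGACT, and the Prox1 match is the forkhead word TGTTTGC.

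Foxa1 start 1: ttatactgctttGTAAACAaagtgagggcc
Foxa2 start 3: ttgtgatcaaatATTGACTtgcggcgcctc
Prox1 start 2: ctatttgcttgcTGTTTGCatacctttcac

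No HNF4 word was found in the 10 windows. Among 32851 promoter windows of the same length, ATTGATT was present in 2.61%, ATTGACT in 1.61%, TGTTTAC in 3.17%, TGTTTGC in 4.30% and CAAAGTCC in 1.196%. Such a match describes the letters of the window and does not show that a factor binds there. Hnf4a has 2 annotated starts in this table, and the count table sums the transcripts from both. The window of its second start (chr2:163546905-163547154) held none of these words. The counts do not show which start was used.

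Libraries held between 15112893 and 19731887 counts assigned to genes. Levels below are CPM, counts divided by the library total that was scaled by the trimmed mean of M-values (TMM), and 3 counts, taken as the floor of detection, were worth 0.128 to 0.273 CPM, which covers counting error only. Marker levels differed between the sorted populations. The summed level of 8 hepatocyte markers ran from 98749 to 103427 CPM in early, 13844 to 18294 in intermediate, 2880 to 3898 in full and 1878 to 2535 in BEC. The summed level of 8 biliary markers ran from 917 to 1876 CPM in early, 9012 to 11944 in intermediate, 11325 to 14595 in full and 13715 to 17073 in BEC. Most of that sum was Spp1, which encodes osteopontin, with 1237 ± 504 CPM in early, 9866 ± 1523 in intermediate, 11316 ± 1790 in full and 12144 ± 2026 in BEC. Epcam is on that list and was used to sort the cells, so its difference between Epcam- and Epcam+ groups follows from the gate. It also differed between groups of the same Epcam gate. It had 0.592 ± 0.250 CPM in early against 18.8 ± 7.24 in intermediate, and 254 ± 41.1 in full against 866 ± 35.6 in BEC. Keratin genes of the list, outside the gate, were lower in intermediate than in full cells, with Krt7 at 3.44 ± 2.39 against 172 ± 40.6 CPM and Krt19 at 2.21 ± 1.13 against 118 ± 18.8 CPM (SD, n = 3). Every difference in level below is a property of bulk RNA, in which fewer cells of a type and less RNA per cell cannot be told apart, and the part that the share of hepatocyte RNA plays in each was not tested. The share of counts from mitochondrial genes also moved with the groups, at 5.45% to 11.4% in early, 3.99% to 4.75% in intermediate, 2.196% to 2.48% in full and 2.58% to 3.43% in BEC, and its part in the results was not tested.

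Each pair of groups was tested by edgeR's quasi-likelihood method, and a gene counted as called where its p, adjusted by Benjamini and Hochberg over all 16210 genes, was under 0.05. Between intermediate and early, 6 of 8 members were called, 4 higher and 2 lower, where 54.4% of all genes tested were called (28.7% higher and 25.7% lower). Between full and intermediate 4 of 8 were called, 2 in each direction, against 40.7% of all genes (20.8% higher, 19.8% lower). Between BEC and full 3 of 8 were called, 1 higher and 2 lower, against 21.3% of all genes (10.7% higher, 10.6% lower). With a background this high, and 8 members, these counts do not set the factors apart from other genes.

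**Figure D1:**
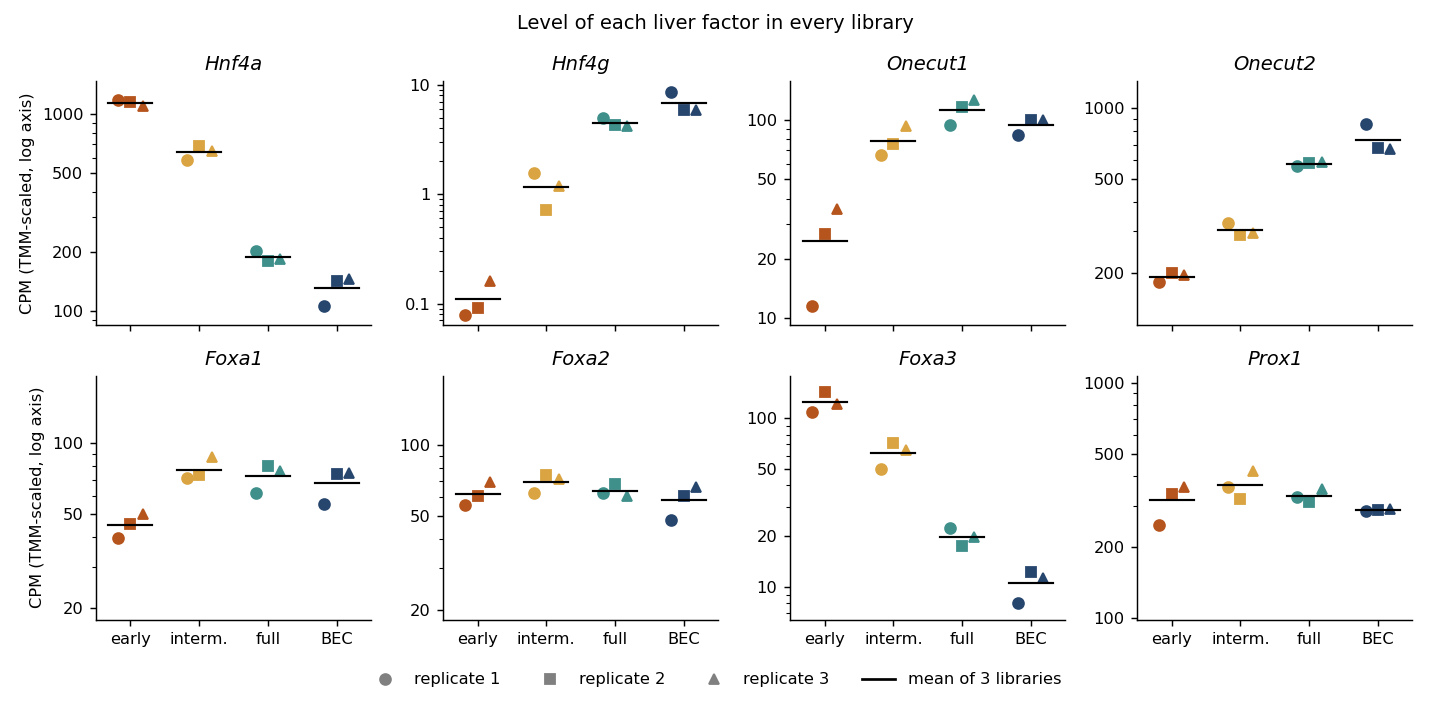
Level of each factor in each of the 12 libraries, in TMM-scaled CPM on a log axis that differs between panels. Symbols are replicates 1 to 3 and bars are means of 3 libraries. Hnf4a and Foxa3 step down from early to BEC, Hnf4g and Onecut2 step up, Onecut1 and Foxa1 rise between early and intermediate, the 4 groups of Foxa2 overlap, and the early libraries of Prox1 span the range of its BEC libraries.

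The HNF4 pair moved in opposite directions. Hnf4a stood at 1175, 1150 and 1099 CPM in the early libraries, 585, 683 and 644 in intermediate, 200, 179 and 183 in full, and 105, 141 and 145 in BEC. No library of one group overlapped with another group, and BEC replicate 1 was the lowest of all 12. Hnf4a fell by 0.84 on the log2 scale between early and intermediate (SE 0.12, edgeR adjusted p 4.60e-05), by 1.77 between intermediate and full (SE 0.12, edgeR adjusted p 1.96e-07) and by 0.52 between full and BEC (SE 0.12, edgeR adjusted p 0.00625). The second of these falls was larger than the first, by 0.93 on the log2 scale (SE 0.20, edgeR adjusted p 0.00696). The fall at the first step was lost as a call when libraries were scaled by total counts only (log2 fold change -0.17, edgeR adjusted p 0.196). That scaling moved the log2 fold change of the median gene from 0.06 to 0.72, and Hnf4a lay at -0.90 relative to it.

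Hnf4g, the paralog that is characteristic of gut, pancreas and kidney epithelium, was near absent in early cells, with 1, 1 and 2 counts in the 3 libraries. It reached 1.57, 0.712 and 1.19 CPM in intermediate, 4.98, 4.28 and 4.199 in full, and 8.62, 5.82 and 5.89 in BEC. The 4 groups did not overlap, and the early libraries lay under the floor. In pooled counts, Hnf4g was 10.2-fold higher in intermediate than in early (95% counting interval 3.796 to 38.8, 59 against 4 counts). It was 40.4-fold higher in full (15.6 to 149) and 60.8-fold higher in BEC (23.6 to 224). The rises between early and intermediate (edgeR adjusted p 0.000133) and between intermediate and full (1.96 on the log2 scale, SE 0.29, edgeR adjusted p 0.000127) were called, and the rise between full and BEC was not (0.59, SE 0.25, edgeR adjusted p 0.128). The fitted fold of the first rise, 3.29 on the log2 scale, depends on the prior count and is no bound.

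Per kilobase of exon, Hnf4a remained the predominant HNF4 transcript in every group. Hnf4g made up 0.0180% ± 0.0079 of the summed HNF4 level in early, 0.340% ± 0.1499 in intermediate, 4.21% ± 0.164 in full and 9.01% ± 3.50 in BEC (mean ± SD, n = 3). The summed level of the pair fell from 236 ± 7.96 CPM per kilobase in early cells to 132 ± 10.1 in intermediate cells, 40.5 ± 2.497 in full cells and 29.6 ± 3.92 in BEC (mean ± SD, n = 3). The ratio of Hnf4g to Hnf4a counts within a library, which does not depend on scaling, differed among the 4 groups with an exact permutation p of 6.49e-05 (adjusted p 0.000108 over 5 ratios). This is the smallest p that 369600 assignments of 12 libraries can give. An antisense transcript, Hnf4aos, had 19 to 26 counts in early and 0 to 6 in the other groups, at most 0.175% of the Hnf4a counts of a library. The strand setting of the counting was not given in the sources used here, so reads of a gene and its antisense partner cannot be told apart.

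The FOXA trio did not move together. Foxa3, the FOXA paralog with the highest level in adult hepatocytes, had 109.7, 143 and 121 CPM in early, 50.4, 71.7 and 64.7 in intermediate, 22.5, 17.6 and 19.7 in full, and 8.00, 12.2 and 11.4 in BEC. The groups followed one another downward with no overlap, and replicate 1 was the lowest in early, intermediate and BEC but the highest in full. Foxa3 fell by 0.9999 on the log2 scale at the first step (SE 0.16, edgeR adjusted p 0.000145), by 1.64 at the second (SE 0.17, edgeR adjusted p 4.51e-06) and by 0.92 between full and BEC (SE 0.18, edgeR adjusted p 0.00165). Its change at the second step was not shown to differ from that at the first (difference -0.64, SE 0.28, edgeR adjusted p 0.143). That difference was called without the filter on low counts (-0.68, edgeR adjusted p 0.0404) and on total counts alone (-1.11, edgeR adjusted p 0.00753), a scaling that put the median gene at -0.54 in this contrast. With total counts only, the first fall was -0.34 and was not called (edgeR adjusted p 0.0809).

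Foxa1, a forkhead factor shared by many endodermal epithelia, moved at the first step. Its libraries had 39.6, 45.6 and 50.02 CPM in early, 71.5, 73.3 and 87.2 in intermediate, 61.7, 80.0 and 76.1 in full, and 55.2, 73.8 and 74.7 in BEC. All early libraries lay below all others, while the other 3 groups overlapped, and replicate 1 was the lowest of its group in 4 of 4 groups. Foxa1 rose by 0.78 on the log2 scale between early and intermediate (SE 0.14, edgeR adjusted p 0.000381). It was not called between intermediate and full (-0.09, 95% interval -0.39 to 0.21, edgeR adjusted p 0.642) or between full and BEC (-0.10, interval -0.40 to 0.20, edgeR adjusted p 0.711). The first change exceeded the second by 0.87 on the log2 scale (SE 0.24, edgeR adjusted p 0.0242). Leaving out intermediate replicate 2 (edgeR adjusted p 0.0565) or intermediate replicate 3 (edgeR adjusted p 0.128) ended this call.

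Foxa2, the FOXA factor needed for endoderm formation and a regulator of bile acid handling, stayed within a narrow range. It had 55.7, 60.7 and 69.7 CPM in early, 62.7, 74.4 and 71.5 in intermediate, 62.5, 68.1 and 60.8 in full, and 48.0, 60.8 and 66.2 in BEC. The groups overlapped throughout. No pair of groups was called. With the replicate block Foxa2 was lower in BEC than in intermediate (-0.26, edgeR adjusted p 0.0328, against 0.100 without it), and it also was without BEC replicate 3 (edgeR adjusted p 0.0398). The difference between BEC and early was -0.09 on the log2 scale (95% interval -0.36 to 0.18, edgeR adjusted p 0.535). With total counts only, Foxa2 was 0.83 higher on the log2 scale in intermediate than in early (edgeR adjusted p 6.71e-05) and 0.78 higher in BEC than in early (edgeR adjusted p 7.52e-05), which is 0.11 above and 0.23 below the median of all genes at that scaling.

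The make-up of the FOXA transcripts therefore changed from group to group. Per kilobase of exon, Foxa3 held 60.6% ± 3.49 of the summed FOXA level in early, 36.6% ± 2.90 in intermediate, 16.8% ± 2.84 in full and 10.2% ± 0.786 in BEC (mean ± SD, n = 3). Foxa2 held 26.0% ± 2.499 in early and 49.1% ± 1.23 in BEC, and Foxa1 held 13.4% ± 1.01 in early and 40.7% ± 0.547 in BEC. The summed FOXA level was 101 ± 10.5 CPM per kilobase in early, 83.1 ± 9.07 in intermediate, 58.6 ± 2.75 in full and 50.2 ± 8.24 in BEC (mean ± SD, n = 3). Foxa3 was 2.02 to 2.74 times Foxa2 per length in the early libraries, 0.934 to 1.12 times in intermediate, 0.301 to 0.419 times in full and 0.194 to 0.234 times in BEC. The count ratio of Foxa3 to Foxa2 differed among the 4 groups (exact permutation p 6.49e-05, adjusted p 0.000108). The count ratio of Foxa1 to Foxa2 ran from 0.712 to 0.750 in early and from 0.985 to 1.252 in the other groups (exact permutation p 0.0158, adjusted p 0.0198). When labels were permuted within replicate numbers only, the adjusted p of this ratio was 0.0503.

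**Figure D2:**
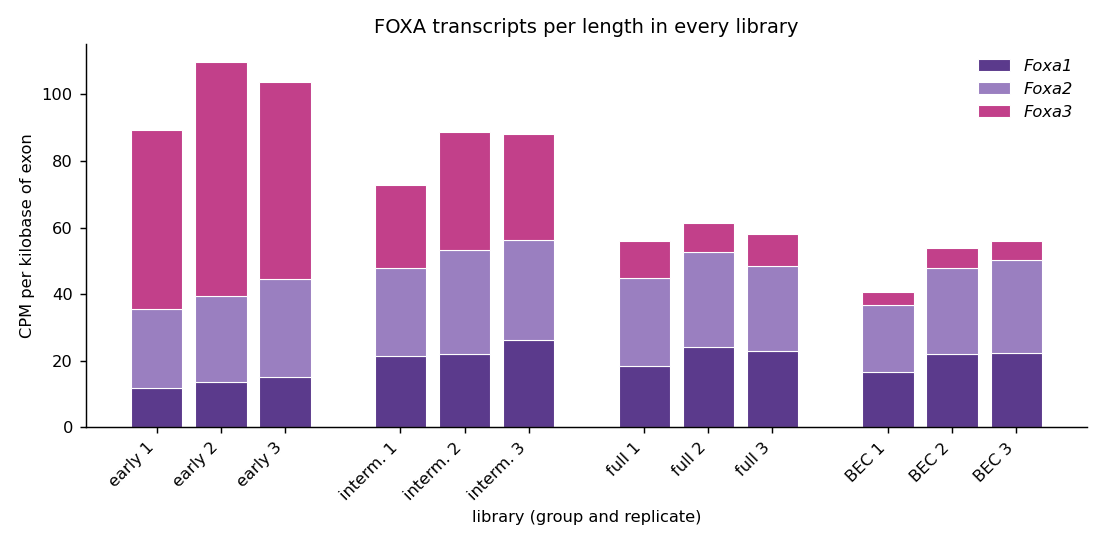
Stacked level of Foxa1, Foxa2 and Foxa3 in each library, in CPM per kilobase of exon (linear axis from 0). Foxa3 is the tallest segment in all 3 early libraries and the smallest in all full and BEC libraries, while the segments of Foxa2 keep a similar height.

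Both Onecut genes rose between early and BEC, and Onecut1 was called at the first step and Onecut2 at each of the 3 steps. Onecut1 had 11.5, 26.6 and 35.5 CPM in early, 66.6, 75.3 and 93.2 in intermediate, 94.4, 115 and 125 in full, and 83.7, 99.9 and 99.6 in BEC. Early lay below every other library, intermediate below every full library, and BEC overlapped with both intermediate and full. As with Foxa1, replicate 1 was the lowest of its group in 4 of 4 groups, and early replicate 1 stood apart from the other early libraries. Onecut1 rose by 1.68 on the log2 scale between early and intermediate (SE 0.28, edgeR adjusted p 0.000177), and by 1.34 to 2.06 when each of the 12 libraries was left out in turn. Its change between intermediate and full missed the threshold (0.51, SE 0.26, edgeR adjusted p 0.142). It passed with a replicate block (0.51, edgeR adjusted p 0.0264), without the filter on low counts (edgeR adjusted p 0.00664), in a fit of the 6 libraries alone (edgeR adjusted p 0.0167), with total counts only (0.71, edgeR adjusted p 0.0448) and without early replicate 1 (edgeR adjusted p 0.0134). The second change was 1.17 below the first on the log2 scale, which was not called (SE 0.45, edgeR adjusted p 0.09997) but passed with the replicate block (-1.22, edgeR adjusted p 0.0110), without the filter on low counts (edgeR adjusted p 0.000369), on total counts alone (-1.62, edgeR adjusted p 0.0139) and without early replicate 1 (edgeR adjusted p 0.0491) or early replicate 3 (edgeR adjusted p 0.0218). BEC and full were not called apart (-0.24, 95% interval -0.80 to 0.32, edgeR adjusted p 0.612).

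Onecut2 had 183, 199 and 196 CPM in early, 327, 289 and 295 in intermediate, 568, 585 and 593 in full, and 854, 680 and 669 in BEC. The groups rose one above the other without overlap. Onecut2 rose by 0.66 on the log2 scale at the first step (SE 0.11, edgeR adjusted p 0.000133), by 0.94 at the second (SE 0.11, edgeR adjusted p 1.09e-05) and by 0.34 between full and BEC (SE 0.10, edgeR adjusted p 0.0349). The last of these calls was lost without any 1 of the 3 full libraries (edgeR adjusted p 0.0845 to 0.109), without BEC replicate 1 (edgeR adjusted p 0.136), without the filter on low counts (edgeR adjusted p 0.0938) and in a fit of those 6 libraries alone (edgeR adjusted p 0.0503).

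The exons of Onecut2 span 16234 bases and those of Onecut1 4113, so the pair was closer per kilobase than in CPM. Their summed level was 17.8 ± 3.39 CPM per kilobase in early, 37.8 ± 2.68 in intermediate, 63.0 ± 4.58 in full and 68.2 ± 4.14 in BEC (mean ± SD, n = 3). Onecut1 held 32.1% ± 11.1 of it in early, 50.3% ± 5.47 in intermediate, 42.9% ± 3.00 in full and 33.9% ± 5.18 in BEC. The count ratio of Onecut2 to Onecut1 differed among the 4 groups with an exact permutation p of 0.0479 (adjusted p 0.0479 over 5 ratios). That call was lost in 9 of 12 analyses that left out 1 library. Without early replicate 1, the difference between BEC and early in this log2 ratio turned from -0.15 to 0.28, so the order of the ratio between these groups rests on that library.

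Prox1 had 249.7, 337 and 362 CPM in early, 359, 320.2 and 422 in intermediate, 327, 312 and 354 in full, and 285, 287 and 290.1 in BEC. Early replicate 1 was the lowest library and intermediate replicate 3 the highest, and the early group overlapped with each of the other groups. The 3 BEC libraries lay within a narrow range, below every intermediate and every full library. BEC and full were not called apart (-0.20 on the log2 scale, 95% interval -0.49 to 0.09, edgeR adjusted p 0.362). Neither the first nor the second step was called (0.22 and -0.15, edgeR adjusted p 0.193 and 0.401), nor was BEC against early (-0.14, 95% interval -0.43 to 0.15, edgeR adjusted p 0.375). This last difference was called without early replicate 1 (-0.28, edgeR adjusted p 0.0431), and on library totals alone it turned to 0.73 (edgeR adjusted p 0.000193), 0.28 below the median of all genes at that scaling. Prox1 was lower in BEC than in intermediate (-0.35, SE 0.13, edgeR adjusted p 0.0406), where 5 of 8 members and 52.4% of all genes were called. DESeq2 did not call that difference (adjusted p 0.0812), and edgeR did not with median-of-ratios factors (adjusted p 0.0759), with total counts only (-0.15, adjusted p 0.372) or when genes averaging under 50 counts were left out (adjusted p 0.0625). The call was also lost without intermediate replicate 1 or 3, full replicate 1 or 2, or any 1 of the BEC libraries (edgeR adjusted p 0.0503 to 0.179). Scaled by total counts only, Prox1 was 0.88 higher on the log2 scale in intermediate than in early (edgeR adjusted p 5.78e-05), 0.16 above the median of all genes.

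Because Prox1 also marks lymphatic endothelium, endothelial markers were set beside it. The summed level of 9 endothelial and lymphatic markers ran from 55.7 to 67.5 CPM in early, 45.6 to 64.1 in intermediate, 76.1 to 83.0 in full and 72.0 to 81.7 in BEC. The list did not move as one. Of its lymphatic markers, Ccl21a and Mmrn1 had 0 counts in all 12 libraries, and Lyve1 had 2 to 10 counts a library. Flt4, the receptor VEGFR3, had 44.7 ± 8.60 CPM in early, 45.7 ± 11.2 in intermediate, 67.4 ± 5.46 in full and 31.7 ± 1.04 in BEC. Pecam1, Cdh5 and Kdr, markers of endothelium in general, were at or below 2.08 CPM in every library. Stab2, of the same list, had 11.9 ± 0.949 CPM in early, 5.02 ± 1.64 in intermediate, 1.40 ± 0.732 in full and 0.938 ± 0.830 in BEC. Pdpn, which encodes podoplanin, had 0 to 1 counts a library in early and 3 to 6 in intermediate, then 8.55 ± 1.12 CPM in full and 42.1 ± 2.43 in BEC. The part of endothelial cells in the Prox1 values was not tested. Prox1os, an antisense row, had 7 to 51 counts, at most 1.62% of the Prox1 counts of a library. The ratio of Prox1 to Hnf4a counts rose from 0.212 to 0.329 in early through 0.468 to 0.655 in intermediate and 1.63 to 1.93 in full, reaching 2.002 to 2.703 in BEC (exact permutation p 6.49e-05, adjusted p 0.000108).

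**Figure D3:**
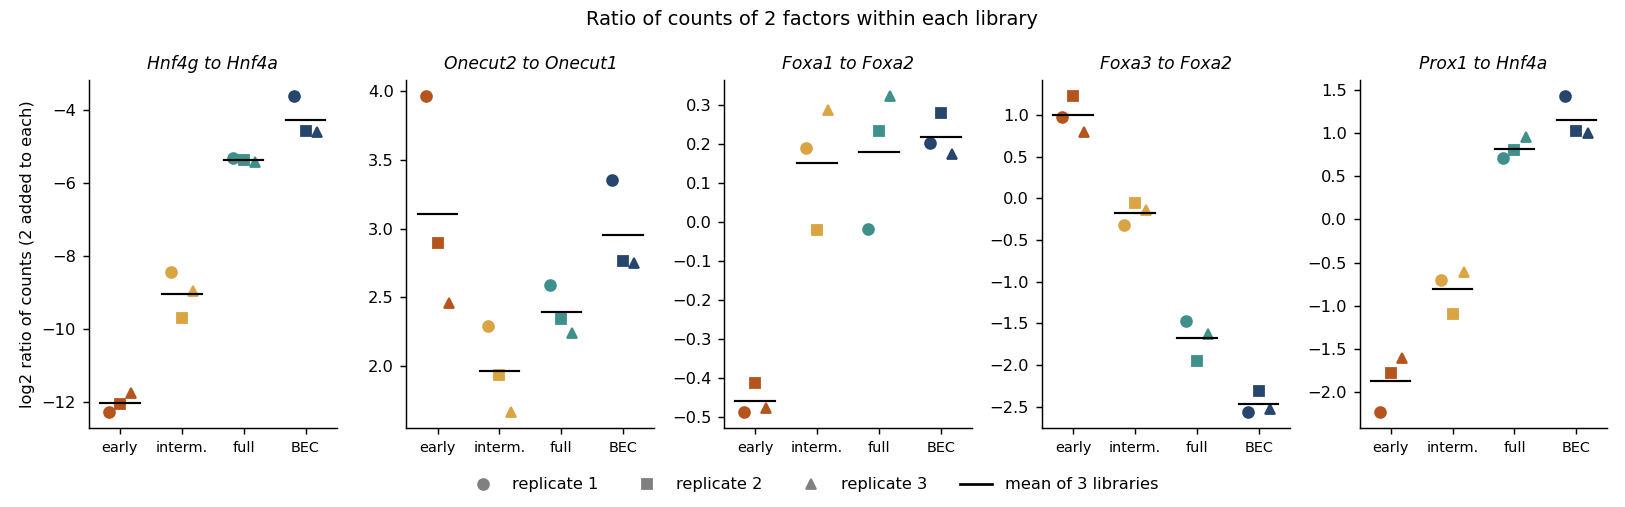
Log2 ratio of the counts of 2 factors within each library, with 2 added to each count. Symbols are replicates 1 to 3 and bars are means. Hnf4g to Hnf4a and Prox1 to Hnf4a rise and Foxa3 to Foxa2 falls from group to group, Foxa1 to Foxa2 is lowest in early, and Onecut2 to Onecut1 has its widest spread in early.

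The order of loss and gain was read from the changes between neighbouring groups and from the share of the early-to-BEC change that each factor had made. Between BEC and early, 6 of 8 members were called, 4 higher and 2 lower, where 73.1% of all genes were called (40% higher and 33% lower). The largest of these changes were those of Hnf4g (pooled ratio above), Foxa3 (-3.56 on the log2 scale, SE 0.18, edgeR adjusted p 5.75e-10) and Hnf4a (-3.13, SE 0.13, edgeR adjusted p 7.87e-11). Onecut1 (1.95, SE 0.28, edgeR adjusted p 2.45e-05) and Onecut2 (1.93, SE 0.11, edgeR adjusted p 1.55e-09) rose by similar amounts, and Foxa1 rose least (0.59, SE 0.14, edgeR adjusted p 0.00186). The same 6 were called between full and early, again 4 higher and 2 lower, where 71.2% of all genes were (39.1% higher, 32.1% lower), and in the test across the 4 groups, where 75.6% were. Foxa2 and Prox1 were not called across the 4 groups (edgeR adjusted p 0.300 and 0.140). Prox1 was called across them without early replicate 1 (edgeR adjusted p 0.0387), and scaling by library totals alone called both (edgeR adjusted p 7.10e-05 for Foxa2 and 8.65e-05 for Prox1).

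**Figure D4:**
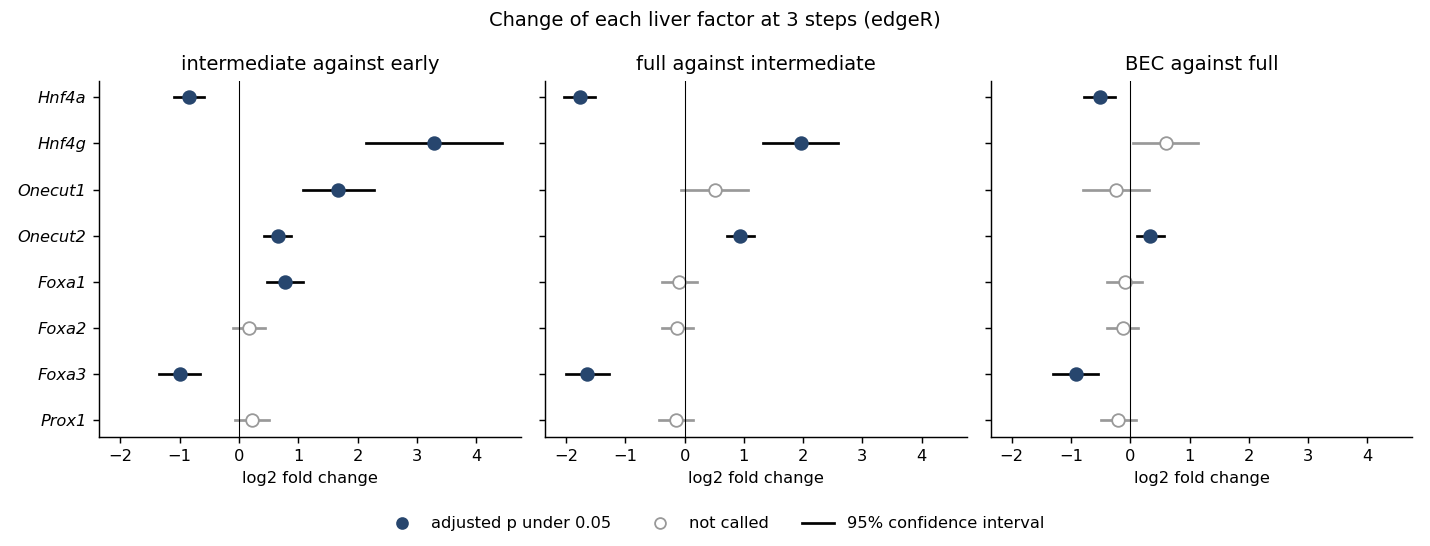
Log2 fold change of each factor at 3 steps, with 95% confidence intervals from edgeR. Filled points passed an adjusted p under 0.05. At intermediate against early 6 factors are filled, at full against intermediate 4, and at BEC against full 3 (Hnf4a, Onecut2 and Foxa3).

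The share of a change is the difference of a library from the early mean in log2 CPM, divided by the difference between the BEC and early means, and it is given as a description for the 6 factors called between BEC and early. The early and BEC means were held fixed, so the SDs of the shares leave out the spread of those libraries. In intermediate cells, the share was 1.33 ± 0.268 for Foxa1 and 0.867 ± 0.118 for Onecut1 (SD, n = 3). Foxa1 was not called between BEC and intermediate (log2 fold change -0.19, 95% interval -0.49 to 0.11, edgeR adjusted p 0.282), and those groups overlapped. Onecut2 stood at 0.341 ± 0.050, Foxa3 at 0.282 ± 0.073 and Hnf4a at 0.268 ± 0.036. The shares of Hnf4g, 0.501 ± 0.105 here, are measured from early libraries under the floor, so they depend on the prior count of 2 and have no place in this order. The libraries of Hnf4a and Foxa3, and of Onecut2 and each of these, overlapped in share, and the differences between these shares were not tested. In full cells the shares were 1.17 ± 0.340 for Foxa1, 1.11 ± 0.100 for Onecut1, 0.831 ± 0.027 for Hnf4a, 0.830 ± 0.016 for Onecut2 and 0.739 ± 0.049 for Foxa3, beside 0.886 ± 0.026 for Hnf4g with the limit just given. The test of unequal steps asks whether the change from intermediate to full differed from that from early to intermediate. It called 2 of 8 members, Hnf4a and Foxa1, both with the second change below the first. Of all genes 16.4% were called, 5.64% with the second change above the first and 10.8% with it below. It did not call Hnf4g, Onecut1, Onecut2 or Foxa3, although Onecut1 and Foxa3 were called under the alternatives given above. The shares of intermediate cells moved with the scaling. They became, under total counts only, 0.0781 for Hnf4a, 0.127 for Foxa3, 0.473 for Onecut2 and 0.995 for Foxa1.

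**Figure D5:**
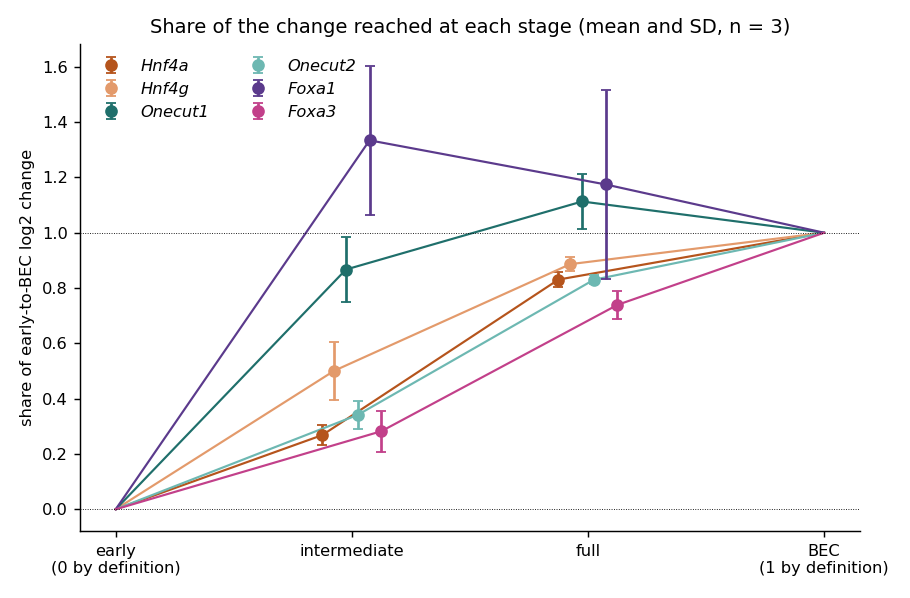
Share of the early-to-BEC log2 change reached in intermediate and full cells, as mean and SD of 3 libraries, with early set to 0 and BEC to 1. The SD leaves out the spread of the early and BEC libraries. Foxa1 and Onecut1 are highest at intermediate (1.33 and 0.867), Hnf4a and Foxa3 lowest (0.268 and 0.282). The Hnf4g line depends on the prior count, since its early libraries lay under the floor.

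Among the members, Hnf4a and Foxa3 had closely similar profiles. The distance between log2 CPM profiles over the 12 libraries, each centred on its mean, was 0.713 for Hnf4a and Foxa3 (Pearson r 0.99). It was 0.592 for Foxa2 and Prox1, but with r of 0.55, since neither profile moved far from its mean. Over 9964 genes with a mean of at least 10 CPM, Hnf4a itself was the nearest gene to Foxa3 (Pearson r 0.99 over 12 libraries, which share the groups). The nearest to Hnf4a were Ifi27l2b (distance 0.359), with 149 CPM in early and 17.4 in BEC, and Tmem243 (0.673). Cdon (0.799) and Mcf2l (1.09) were nearest to Hnf4g, Dzip3 (0.856) and Stxbp4 (0.891) to Onecut1, and Mtmr12 (0.416) and Malt1 (0.453) to Onecut2. Dnajc18 (0.266) and Kif13a (0.394) were nearest to Foxa1, Lrrc47 (0.232) and Senp3 (0.297) to Foxa2, Gk (0.769) came second for Foxa3, and Ngef (0.349) and Cacul1 (0.362) were nearest to Prox1. Ranking by correlation gave 5 of these 16 again.

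Other transcription factors of the hepatocyte network were mostly lower after the first step. Of 20 listed factors 19 were tested, and 3 were higher and 13 lower in intermediate than in early (median log2 fold change -0.86, against 0.06 for all genes). Of all genes 28.7% were higher and 25.7% lower there. The split of the list became 6 higher and 8 lower under total counts only, where 11249 of 16210 genes were called, 9626 of them higher. Between full and intermediate 3 were higher and 11 lower (median -0.77, against 0.01), beside 20.8% of all genes higher and 19.8% lower. Between BEC and full 3 were higher and 5 lower, beside 10.7% of all genes higher and 10.6% lower. Creb3l3, a membrane-bound factor of hepatic lipid metabolism, fell from 414 ± 32.3 CPM in early to 264 ± 9.63, 77.0 ± 7.39 and 9.58 ± 0.820 in BEC (mean ± SD, n = 3), with its largest change between full and BEC (log2 fold change -3.01, SE 0.11, edgeR adjusted p 3.60e-09). The fall of Creb3l3 at the first step (-0.65, edgeR adjusted p 7.06e-05) was not seen with total counts only (0.014, edgeR adjusted p 0.909). Ppara, the receptor that drives fatty acid oxidation, fell from 134 ± 23.2 CPM in early cells to 37.9 ± 7.52 in intermediate cells, 6.71 ± 0.842 in full cells and 3.54 ± 1.05 in BEC. Nr1i3, the xenobiotic receptor CAR, and Tbx3 fell by 5.96 and 5.53 on the log2 scale between early and BEC.

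Other factors of the list were higher in BEC. Gata6, an endodermal GATA factor, rose from 43.5 ± 4.95 CPM in early to 157 ± 15.2 in BEC. Nr2f2, encoding COUP-TFII, was not called at the first step (-0.15, edgeR adjusted p 0.390, and higher by 0.51 with total counts only, edgeR adjusted p 0.00680) and rose at the second (0.83, SE 0.14, edgeR adjusted p 0.000330) and between full and BEC (0.73, SE 0.14, edgeR adjusted p 0.00150). Onecut3, the third Onecut paralog, had 0 counts in the 3 early libraries, 0 to 6 in intermediate, 1 to 6 in full and 34 to 46 in BEC. Its difference between BEC and full was called (edgeR adjusted p 0.00487).

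Of 15 listed genes known as HNF4A targets, 15 were lower in intermediate than in early (median log2 fold change -2.34), where 25.7% of all genes were lower. At the second step 14 were lower in full than in intermediate (-2.68), beside 19.8% of all genes, and between BEC and full 6 were lower (-0.28) and 9 were not called, beside 10.6%. Under total counts only, 13 were lower at the first step, at which Hnf4a itself was not called with that scaling. Apoc3, an apolipoprotein of triglyceride-rich particles, fell from 1650.0 ± 11.6 CPM in early cells to 149 ± 8.96 in intermediate cells, 19.3 ± 5.41 in full cells and 16.8 ± 8.32 in BEC (mean ± SD, n = 3). F7, coagulation factor VII, fell from 164 ± 8.56 CPM to 46.7 ± 8.56, 4.90 ± 2.20 and 1.51 ± 0.930, and Otc, a urea cycle enzyme, from 375 ± 47.7 to 40.5 ± 10.01, 4.39 ± 1.18 and 3.88 ± 2.16. At the first step Hnf4a itself fell by 0.84 on the log2 scale. The summed hepatocyte markers given above moved with this list, and their part in it was not tested. Like the other lists, this one was chosen with earlier results of these data known, so its counts are a description only.

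Of 9 listed FOXA targets, 8 were lower in intermediate than in early (median log2 fold change -2.54), 9 were lower in full than in intermediate (-2.41) and 5 were lower in BEC than in full (-0.64), beside the same shares of all genes. On library totals alone these counts were 7, 9 and 5. Foxa3, which held 60.6% ± 3.49 of the summed FOXA level in early, was called lower at each step with TMM scaling. Foxa2 was not called at any step, and Foxa1 was higher at the first. The summed FOXA level fell from 101 ± 10.5 CPM per kilobase in early to 50.2 ± 8.24 in BEC. Pck1, the enzyme that commits carbon to gluconeogenesis, fell from 1755 ± 307 CPM in early cells to 289 ± 57.7 in intermediate cells, 20.2 ± 5.999 in full cells and 17.4 ± 6.84 in BEC. Igfbp1 was the 1 target not called at the first step, with 173 ± 169 CPM in early and 84.4 ± 66.4 in intermediate. Ttr is on both target lists, and Alb, Ttr and Cps1 are also hepatocyte markers.

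Of 10 listed transcription factors of the biliary lineage, 8 were higher in intermediate than in early (median log2 fold change 2.65, or 2.85 where a gene at the floor takes its bound), where 28.7% of all genes were higher. Hes1 and Grhl2 were not called there. Between full and intermediate 7 were higher (0.62), beside 20.8% of all genes, and Sox4, Sox9 and Hes1 were not called. Between BEC and full 4 were higher, beside 10.7% of all genes, and Hey1 and Tead2 were lower. Tead2, a partner of YAP, went from 1.41 ± 0.357 CPM in early cells to 52.7 ± 2.80 in intermediate cells, 78.1 ± 4.61 in full cells and 34.5 ± 2.89 in BEC, whereas Grhl2, an epithelial junction regulator, had at most 1 count in any early or intermediate library and 16.3 ± 4.22 CPM in full and 68.7 ± 3.40 in BEC. Klf5 had 0 to 2 counts in the early libraries and rose to 3.59 ± 2.99 CPM in intermediate, 45.3 ± 5.31 in full and 134 ± 16.8 in BEC.

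Of 7 listed genes linked to PROX1, 3 were called between intermediate and early, all lower, where 54.4% of all genes were called. Full cells had 3 of them lower and 2 higher than intermediate cells, where 40.7% of all genes were called. Between BEC and full edgeR called 0, with 0 at an unadjusted p under 0.05 and 0 by DESeq2, where edgeR called 21.3% of all genes. Cyp7a1, the rate-limiting enzyme of bile acid synthesis and a gene that PROX1 represses, fell from 269.6 ± 63.2 CPM in early to 18.1 ± 6.44 in intermediate and 3.23 ± 1.89 in BEC. Nr5a2, the nuclear receptor LRH-1 with which PROX1 interacts, was not called at any of the 3 steps. Between BEC and early 4 were lower, where 33% of all genes were lower and 40% higher. With total counts only 3 were higher and 2 lower, so the balance of this list turned with the scaling. That scaling also moved the number of all genes called higher from 6491 to 10669 of 16210.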

How the data were processed

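Bulk RNA-seq covered 12 libraries, 3 in each of 4 groups of sorted liver cells, with groups taken from the sample titles and sort gates. The authors deposited a table of whole-number counts per gene symbol, made with STAR 2.7.10b and featureCounts 2.0.1 on GRCm39, per the submitters' processing notes. DESeq2 is named there without a version. The authors' size-factor normalized table was not used. The strand setting and the handling of multi-mapping reads were not given in the sources used here.

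Genes were kept by filterByExpr, scaled by TMM and fitted with edgeR 4.0.16 (R 4.3.3), with all 12 libraries and a term per group. The fit was tested on simulated data. CPM uses the TMM-scaled library size, and log2 values a prior count of 2. The common biological coefficient of variation was 14.8%. Levels per kilobase used the merged exons of GENCODE M21. Within-library ratios were set against each other across the 4 groups by an exact permutation test of the between-group sum of squares over 369600 assignments, adjusted over 5 ratios.

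Members and gene lists were chosen with earlier results of these data known. Genes named with values were mainly the members, the 2 nearest genes to each, and, per list and direction, up to 4 called genes with the largest change between BEC and early. Some genes chosen by this rule are not reported here. Igfbp1, Nr5a2, Ccl21a, Mmrn1 and Lyve1 were singled out after their values were seen. Krt7, Spp1, Pecam1, Cdh5, Kdr, Hbb-bs, Hba-a1 and Wt1 were given values outside that rule. Alternatives were DESeq2 1.42.0, other scaling, filters, a minimum fold change, a replicate block, 6-library fits and leaving out each library.

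Replicate numbers 1 to 3 are shared by the groups. Deviations from the group means, across genes, correlated between same-numbered libraries with r of 0.121 to 0.293 for intermediate and early, 0.137 to 0.322 for full and intermediate and 0.170 to 0.257 for BEC and full, so the numbers were taken to pair libraries in these 3 comparisons. In the other 3 at least 1 pair was under 0.1. What a number marks was not given in the sources used here. The main fit and the main permutation tests did not use the numbers as pairs. The replicate block was run as an alternative, and the calls that it changed are given below.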

Additional observations from a re-analysis of the deposited data

How the results depend on the processing

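Scaling by total counts only had the widest effect. It moved the log2 fold change of the median gene to 0.72 at the first step, 0.21 at the second, 1.005 from early to full, 1.004 from early to BEC and 0.20 from intermediate to BEC. The count of members with unequal steps became 6 with this scaling, where 6139 of 16210 genes were called. It became 4 without the filter on low counts, where 2932 of 30230 genes were called. In the main fit it was 2, beside 16.4% of all genes, and it was 1 to 3 when each library was left out. With a minimum fold change of 1.5, edgeR called 0 members between BEC and full in place of 3 (1 at an unadjusted p under 0.05, and 3 by DESeq2 without the minimum), since that test asks for more. Of all 16210 genes, 1463 were called there in place of 3445. Choosing the most similar genes by correlation kept 5 of 16.

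Under total counts only, signs turned for full against intermediate of Prox1 (0.051), Foxa2 (0.079) and Foxa1 (0.11), for BEC against early of Prox1 (0.73, edgeR adjusted p 0.000193) and Foxa2 (0.78, edgeR adjusted p 7.52e-05), for Foxa1 in BEC against intermediate (0.017) and for the unequal steps of Onecut2 (-0.18). Leaving out 1 library at a time gave ranges across 0 for Foxa1 in full against intermediate (-0.16 to 0.014) and BEC against full (-0.20 to 0.031), for Foxa2 in full against early (-0.030 to 0.14) and BEC against early (-0.19 to 0.037), for Prox1 in full against early (-0.078 to 0.18) and for the log2 ratio of Onecut2 to Onecut1 between BEC and early (-0.48 to 0.28). Prox1 was called between BEC and early without early replicate 1 (-0.28, edgeR adjusted p 0.0431). For these sign changes the cause was not tested.

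The replicate block gained Onecut1 in full against intermediate (0.51, edgeR adjusted p 0.0264), Onecut1 in unequal steps (-1.22, edgeR adjusted p 0.0110) and Foxa2 in BEC against intermediate (-0.26, edgeR adjusted p 0.0328), lost the Foxa1 to Foxa2 ratio (adjusted p 0.0503), and changed no other call of a member or ratio. Of 480 comparisons of single members with other settings, 439 kept their direction and call, as did 742 of 768 that left out 1 library. Depth limits Hnf4g in early cells, at 1 to 2 counts a library.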

Other observations

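Markers of other cell types differed in direction between the groups. Csf1r, a receptor of macrophages, went from 3.94 ± 0.157 CPM in early cells to 24.6 ± 0.0479 in intermediate cells, 67.8 ± 6.32 in full cells and 127 ± 6.69 in BEC. Cd68, also on that list, was lower in BEC than in early (log2 fold change -2.01, SE 0.27, edgeR adjusted p 1.14e-05), so the list did not move as one. Msln, a mesothelial marker, had 1.61 ± 0.846 CPM in early, 0.880 ± 0.164 in intermediate, 21.4 ± 6.07 in full and 198 ± 13.2 in BEC. Wt1, of the same list, did not rise with it, at 1.35 ± 0.584 CPM in full and 0.470 ± 0.138 in BEC. Wt1 in BEC was not called against full (edgeR adjusted p 0.128) or early (edgeR adjusted p 0.225). Stab2, on the endothelial list, fell from 11.9 ± 0.949 to 0.938 ± 0.830 CPM. The summed stellate cell and fibroblast markers ran from 94.6 to 272 CPM in early and 48.8 to 86.2 in BEC, and the B and T cell markers stayed at or below 0.320 CPM in all 12 libraries. Of the 3 erythroid markers, Hbb-bs and Hba-a1 had 0 to 3 counts in every library, whereas Alas2, which makes heme precursors in erythroid cells, had 24.3 ± 7.62 CPM in early and 0.819 ± 0.425 in BEC (SD, n = 3).

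Tead2 had its highest level in full cells, 78.1 ± 4.61 CPM, and was lower in BEC (34.5 ± 2.89 CPM, -1.18 on the log2 scale, SE 0.10, edgeR adjusted p 2.60e-06), which was opposite in direction to Grhl2 (2.07, SE 0.18, edgeR adjusted p 8.42e-06), Klf5 (1.57, SE 0.29, edgeR adjusted p 0.00144) and Ehf (1.42, SE 0.35, edgeR adjusted p 0.00930) at the same step.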
